A study of Mus musculus with 9 samples.

Results

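Expression of 9 genes of neurotrophin and GDNF family signalling was followed in the dorsal root ganglion (DRG) of mice after sciatic nerve transection: the ligands Bdnf and Gdnf, the neurotrophin receptors Ntrk2, Ntrk3 and Ngfr, and the GDNF family receptors Ret, Gfra1, Gfra2 and Gfra3. They were found by the gene name or RefSeq transcript that the array files give, and every probe of them is reported, which made 14 probes of the 41174 on the array. All 14 passed the filter on dim probes and were among the 31186 probes tested, so that all 9 genes were measured. RNA came from L3/L4 DRG of adult mice, 4 uninjured samples and 5 injured samples, taken per the labels 3 days after sciatic nerve transection. The labels of both groups carry that same source text, and the study's text gives a shorter time in one place. Every sample, control or lesion, was labelled cre.neg and jun.wt, meaning animals without Cre and with wild-type Jun. Each sample was labelled with Cy5 and hybridised beside a universal mouse reference RNA in Cy3 on a two-colour Agilent array, with no dye swap, and the log2 ratio of DRG over reference is the level used throughout. The study's methods name contralateral ganglia as the controls for nerve crush in other assays and do not say where the uninjured ganglia of the arrays came from. No animal is identified, so the p-values measure only the spread between these samples, which may be technical.

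Neurotrophins are secreted growth factors on which sensory neurons depend in development and which tune them in the adult. They signal through Trk receptor tyrosine kinases, TrkB (Ntrk2) for BDNF and TrkC (Ntrk3) for neurotrophin-3, and through the low-affinity receptor p75 (Ngfr), which binds all of them. GDNF family ligands bind GPI-anchored coreceptors, GFRα1 for GDNF, GFRα2 for neurturin and GFRα3 for artemin, and the complex activates the receptor tyrosine kinase Ret. In the DRG these receptors mark different classes of sensory neurons, and p75 and truncated TrkB are also made by glia.

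The median Cy5 signal per array lay between 200 and 231 on uninjured arrays and between 156 and 238 on injured arrays, and between 71.0% and 78.9% of spots were well above background in Cy5. The number of arrays limits the precision. The injury markers Atf3 and Sprr1a were higher on every injured array than on every uninjured one, by 5.14 ± 0.07 and 4.99 ± 0.10 on the log2 scale (SE; limma adjusted p = 2.3e-11 and 1.16e-09). All 11 sensory neuron markers examined passed the filter on dim probes. Of the 11, Isl1 (−0.49, limma adjusted p = 2.62e-04) and Scn9a (−0.54, limma adjusted p = 0.00505) were called lower and none higher. Of all 20898 genes, 2338 were called higher and 2859 lower by their brightest probe. The mean level of the 11 markers lay from −0.29 to 0.02 on injured arrays, relative to the uninjured mean, against −0.10 to 0.11 on uninjured arrays. It was lower on injured arrays 1 to 4 than on any uninjured array. Muscle genes were high on injured arrays 2 and 4 (mean of 7 genes 1.81 and 3.27 above the uninjured mean), where the other arrays lay between −0.11 and 0.40. The mean of 4 red blood cell genes was 1.57, 0.68 and 1.11 on injured arrays 2, 4 and 5. It lay between −0.24 and 0.31 on the other arrays, and none of these genes was called. Across all marker lists the highest change was that of Jun (1.77 ± 0.23) and the lowest that of Etv1 (−0.80 ± 0.09). The arrays lay on 3 slides, which held 3 uninjured arrays, 2 injured arrays, and 3 injured with 1 uninjured array. Slide and injury can be told apart only on the last. The difference on it is given for each called member probe as the value on the mixed slide. It equals the estimate with slide as a fixed block. For pathway and marker genes outside the members no such value is given, so their changes are not separated from slide. In whole ganglia fewer cells of a type and less RNA per cell cannot be told apart.

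Of the 14 probes, 8 differed between injured and uninjured DRG in limma at an adjusted p under 0.05, 6 higher and 2 lower, where 23.5% of all probes tested did. Groups of arrays did not overlap for 7 of the 14, against 22.5% of all probes. The members were chosen with earlier results of these data known, so these shares do not test them as a set. Both probes of Bdnf and of Gfra1 are among the 8. The median change was 0.06 on the log2 scale over the 14 probes and −0.004 over all probes. Counted by the brightest probe of each gene, 5 of 9 genes were called: Bdnf, Ret, Gfra1 and Gfra3 were higher and Gfra2 was lower. Ntrk2, Ntrk3, Ngfr and Gdnf were not called by that probe, although the kinase transcript of Ntrk2 was. Without injured arrays 2 and 4, 3 of the 9 genes were called (Bdnf, Gfra1 and Gfra2), and the adjusted p was 0.0691 for Ret and 0.0974 for Gfra3. With slide as a fixed block 2 were called, Bdnf and Gfra2. The direction on the mixed slide was that of all 9 arrays for each of the 8 called probes. For the 7 whose groups did not overlap no other direction was possible, since that slide holds some of the same arrays. Only Gfra3 could have differed, so the shared direction does not test the part of the slides.

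**Figure D1:**
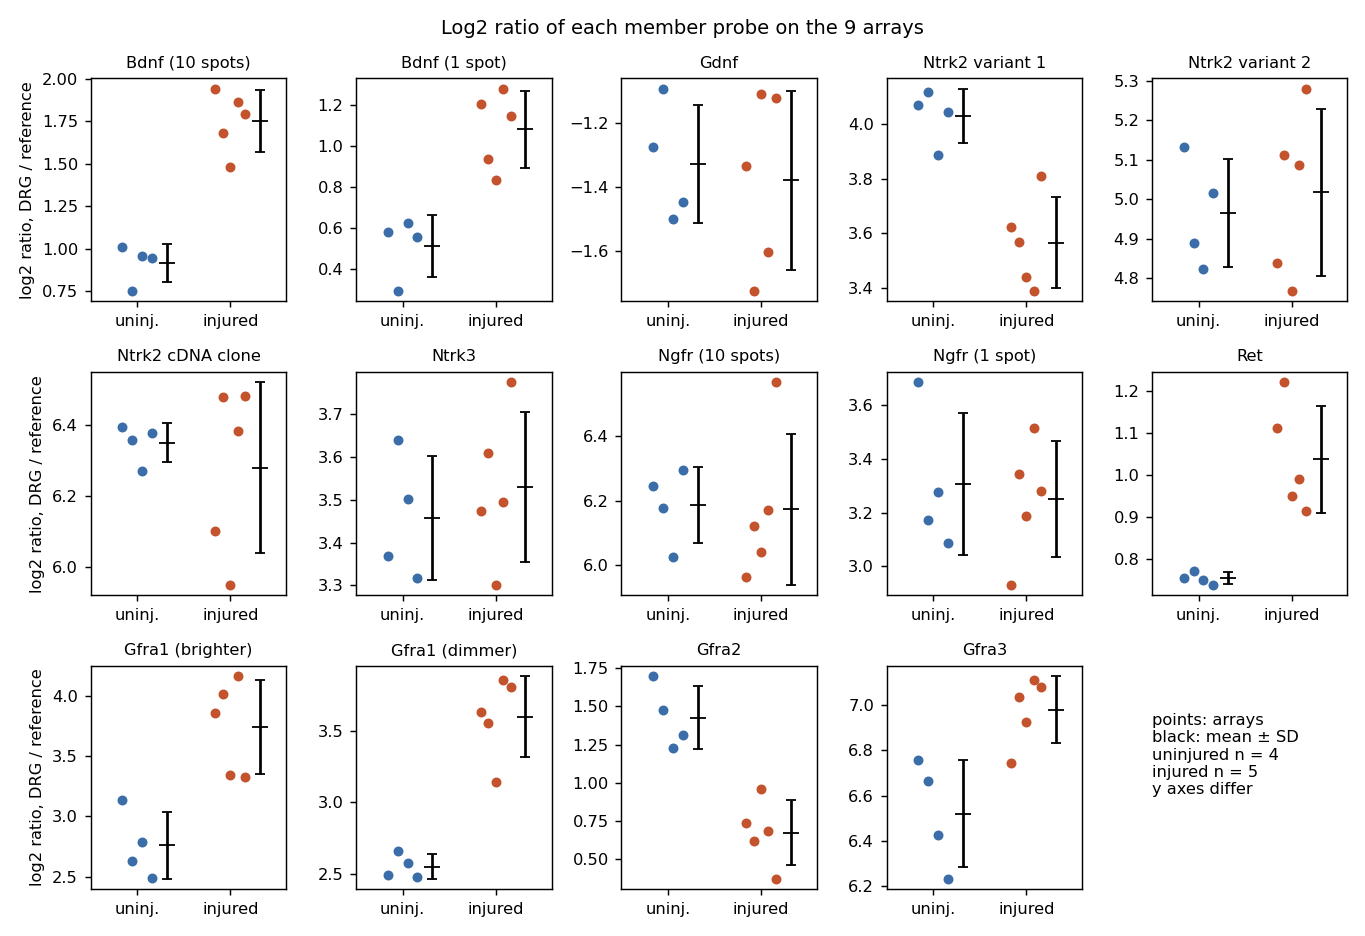
Log2 ratio of DRG (Cy5) over reference (Cy3) for each of the 14 probes on the 4 uninjured (blue) and 5 injured (orange) arrays, with the mean ± SD in black and a y axis of its own for each probe. Points of the groups are separate for both Bdnf probes, Ntrk2 variant 1, Ret, both Gfra1 probes and Gfra2, and they mix for the others.

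The rise of Bdnf can be set beside the sequence of its start sites, since the gene has many alternative first exons. RefSeq promoters (build GRCm38.p6, 250 bases before to 50 after each start) were used for 5 of the 9 genes. They made 12 promoters in all, 7 of them for Bdnf. Ret, Ntrk3, Gfra2 and Gfra3 were not searched. The 12 promoters were searched on both strands for 2 sets of letters. One was TGANTCA, with any base at N, a loose form of the AP-1 site of Jun and Fos family dimers. The other was the core of the cAMP response element (CRE), TGACGT, bound by CREB and ATF family factors. It reads ACGTCA on the other strand. The first was in 7.81% and the second in 7.51% of all 32851 promoters of this length. Of the 7 Bdnf promoters 2 held a match, the AP-1 letters beginning 152 bases before one start and the CRE core 36 bases before another, and 1 of the 2 Gdnf promoters held the CRE core. Neither was found in the window of Gfra1, Ngfr or Ntrk2. The 2 Bdnf promoters with a match are shown with those letters in capitals, and that of Gfra1 because its probes rose most in the values used here. With Agilent's own ratio or no offset the Bdnf probe of 10 spots rose more (0.87 and 0.84) than either Gfra1 probe.
Bdnf, chr2:109676782-109677081, plus strand: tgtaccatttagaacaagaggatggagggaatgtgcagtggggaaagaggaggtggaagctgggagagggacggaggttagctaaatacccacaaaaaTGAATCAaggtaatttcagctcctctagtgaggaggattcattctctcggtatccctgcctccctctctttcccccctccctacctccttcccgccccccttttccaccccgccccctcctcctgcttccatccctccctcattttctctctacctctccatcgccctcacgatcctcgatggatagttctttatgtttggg
Bdnf, chr2:109692186-109692485, plus strand: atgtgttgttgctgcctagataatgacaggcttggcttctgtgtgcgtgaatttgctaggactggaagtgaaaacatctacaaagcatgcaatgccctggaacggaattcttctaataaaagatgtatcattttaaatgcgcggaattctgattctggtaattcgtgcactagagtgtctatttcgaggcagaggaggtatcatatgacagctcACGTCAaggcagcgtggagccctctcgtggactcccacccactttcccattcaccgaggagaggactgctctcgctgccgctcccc
Gfra1, chr19:58455349-58455648, minus strand: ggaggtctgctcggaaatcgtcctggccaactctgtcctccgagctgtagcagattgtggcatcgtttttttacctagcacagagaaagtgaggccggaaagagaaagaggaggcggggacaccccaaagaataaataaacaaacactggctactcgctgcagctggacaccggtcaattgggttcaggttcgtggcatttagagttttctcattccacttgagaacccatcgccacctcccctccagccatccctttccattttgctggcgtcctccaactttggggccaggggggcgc
The files assign both Bdnf probes to a single transcript, and which start was used was not measured here. A match of letters is a description of the window, not a site. The AP-1 match in Bdnf reads TGAATCA, and binding of Jun or Fos to it was not tested.

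Bdnf, the ligand of TrkB, was higher in injured DRG at both of its probes. The probe printed in 10 spots (chr2:109574833-109574892 on build mm7, plus strand) read 1.01, 0.75, 0.96 and 0.95 on uninjured arrays 1 to 4 and 1.94, 1.68, 1.48, 1.87 and 1.79 on injured arrays 1 to 5. The lowest injured array stood above the highest uninjured one. The means were 0.92 ± 0.11 (SD, n = 4) and 1.75 ± 0.18 (SD, n = 5), a rise of 0.84 ± 0.10 (SE) or 1.78-fold (limma adjusted p = 1.63e-04; exact permutation p = 0.00794, the smallest that the 126 splits of the arrays allow). On the mixed slide it was 0.80, and with slide as a block the adjusted p was 0.0381. The other probe (chr2:109577100-109577159), printed once, rose by 0.57 ± 0.10 (adjusted p = 0.00297), again with no overlap, and by 0.52 on the mixed slide (adjusted p = 0.193 with the block). The distance between the 2 probes was itself larger in injured DRG: the first minus the second was between 0.33 and 0.46 on uninjured and between 0.59 and 0.74 on injured arrays, a change of 0.27 (exact permutation p = 0.00794; 0.0476 after Benjamini-Hochberg adjustment over the 6 pairs of probes of the same gene). The reference channel of both probes differed by at most 0.01 between the groups.

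Gdnf, the founding ligand of the GDNF family, had little signal in DRG RNA. Its probe (chr15:7663781-7663840) was above background in Cy5 on 4 of 4 uninjured and 4 of 5 injured arrays, and its log2 ratio was −1.33 ± 0.18 (SD, n = 4) and −1.38 ± 0.28 (SD, n = 5). The uninjured arrays read −1.28, −1.09, −1.50 and −1.45 and the injured ones −1.33, −1.73, −1.11, −1.60 and −1.12, so the groups overlapped fully. The difference was −0.05 ± 0.14 (limma adjusted p = 0.839), and its sign turned when single arrays were left out.

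The transcripts of Ntrk2 did not all behave alike. The gene makes a full-length receptor with the kinase (transcript variant 1) and a truncated receptor without it (variant 2), whose ends lie far apart on chromosome 13. The kinase transcript was read by 10 spots at chr13:58224249-58224308 and the truncated one by 10 spots at chr13:58026995-58027054, while a further probe, designed on a cDNA clone, lies directly beside the latter at chr13:58027055-58027112.

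The kinase transcript read 4.07, 4.12, 3.89 and 4.04 on the uninjured arrays and 3.62, 3.57, 3.44, 3.39 and 3.81 on the injured ones. Every injured array lay below every uninjured one. The mean went from 4.03 ± 0.10 (SD, n = 4) to 3.57 ± 0.17 (SD, n = 5), a fall of 1.38-fold (−0.46 ± 0.09 SE, limma adjusted p = 0.00397, exact permutation p = 0.0159). On the mixed slide the difference was −0.40, with an adjusted p of 0.139 with the block.

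The truncated transcript read 5.13, 4.89, 4.82 and 5.02 on uninjured and 4.84, 5.11, 4.77, 5.09 and 5.28 on injured arrays. Here the groups overlapped, and the difference was 0.05 ± 0.11 (adjusted p = 0.784). The adjacent cDNA probe gave −0.07 ± 0.11 (adjusted p = 0.703), also with overlapping groups. The kinase minus the truncated probe was −1.06, −0.77, −0.94 and −0.97 on uninjured and −1.21, −1.54, −1.33, −1.70 and −1.47 on injured arrays, so that the 2 transcripts moved apart by 0.52 (exact permutation p = 0.0159, 0.0476 adjusted over the 6 pairs) with no overlap. Against the cDNA probe the kinase probe moved by −0.39 (exact permutation p = 0.0238, adjusted 0.0476), and the truncated and cDNA probes differed by 0.12 in their change (exact permutation p = 0.0714). Those adjacent probes also differed past the threshold when all spots were kept (−0.15) and in Cy5 alone (−0.11), with an exact permutation p of 0.0159 in each. On the mixed slide the kinase probe moved by −0.35 and −0.36 against the other 2. With Agilent's own ratio these became −0.18 and −0.10, with exact permutation p of 0.127 and 0.667, and the kinase probe alone was at −0.14 (limma adjusted p = 0.360). With no offset in the background correction the kinase probe was at −0.25 (limma adjusted p = 0.164), and it moved by −0.27 against the truncated probe (exact permutation p = 0.0397) and by −0.07 against the cDNA probe (exact permutation p = 0.706). In Cy5 alone these differences were −0.80 and −0.70 (exact permutation p = 0.00794 for each).

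**Figure D2:**
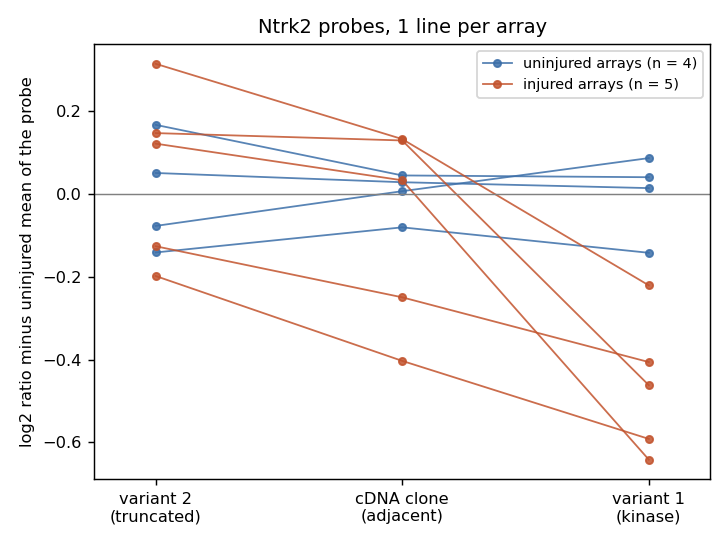
Log2 ratio of the 3 Ntrk2 probes on each array minus the probe's uninjured mean, with 1 line per array (4 uninjured in blue, 5 injured in orange). The injured lines scatter on both sides of 0 at the truncated transcript and all end below the uninjured lines at the kinase transcript.

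Neither of the remaining neurotrophin receptors was called on the ratio. Ntrk3, the neurotrophin-3 receptor, was read by 1 probe (chr7:74311423-74311482, minus strand, transcript variant 2) at a mean log2 ratio of 3.46 ± 0.14 in control samples (SD, n = 4) and 3.53 ± 0.18 in lesion samples (SD, n = 5), a difference of 0.07 ± 0.10 (SE, limma adjusted p = 0.653). The uninjured arrays ran from 3.32 to 3.64 and the injured ones from 3.30 to 3.77. Ngfr had a probe of 10 spots (chr11:95677936-95677995, minus strand) with a very strong Cy5 signal, a mean spot brightness of 86710 on uninjured arrays. It read 6.25, 6.18, 6.02 and 6.30 on uninjured and 5.96, 6.12, 6.04, 6.17 and 6.57 on injured arrays. The uninjured values lay inside the injured range, and the difference was −0.01 ± 0.12 (adjusted p = 0.955). The other Ngfr probe (chr11:95683262-95683321) differed by −0.05 ± 0.14 (adjusted p = 0.822). The mixed slide gave −0.50 for this probe, −0.03 for the first Ngfr probe and 0.25 for Ntrk3. In Cy5 alone, however, the first Ngfr probe was lower in injured DRG by 0.32 on the log2 scale with no overlap of the groups (limma adjusted p = 0.0192), while its reference channel was lower by 0.23 (adjusted p = 0.431).

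Ret, the shared signalling receptor of the GDNF family, showed a small rise. Its 10 spots (chr6:118179346-118179405, minus strand) read 0.75, 0.77, 0.75 and 0.74 on uninjured and 1.11, 1.22, 0.95, 0.99 and 0.91 on injured arrays. All injured arrays stood above the uninjured ones, whose SD of 0.014 was the lowest of any member probe. The rise was 0.28 ± 0.07 (SE) or 1.22-fold (limma adjusted p = 0.0146, exact permutation p = 0.00794). On the mixed slide it was 0.33 (adjusted p = 0.199 with the block). The reference held little Ret, being above background in Cy3 on 2 of 9 arrays, so that the size of the ratio depends on how the background is treated: Cy5 alone gave a rise of 0.32 (adjusted p = 0.00777), no offset gave 0.53, Agilent's own ratio gave 0.57 and keeping all spots in the background fit gave 0.145 (adjusted p = 0.376).

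The GFRα coreceptors moved in different directions. Gfra1 was higher at both of its probes, by 1.97-fold and 2.07-fold. The brighter (chr19:58153201-58153260, minus strand) read 3.13, 2.63, 2.79 and 2.49 on uninjured and 3.85, 4.02, 3.34, 4.16 and 3.32 on injured arrays. The groups did not overlap, although uninjured array 1 came within 0.2 of the lowest injured array. The rise was 0.98 ± 0.19 on the log2 scale (SE, limma adjusted p = 0.00427, exact permutation p = 0.00794), and on the mixed slide, which holds that uninjured array, it was 0.60 (adjusted p = 0.359 with the block). The dimmer probe, whose coordinates run across an intron (chr19:58154603-58155369), read 2.49, 2.66, 2.57 and 2.48 on uninjured and 3.63, 3.56, 3.14, 3.85 and 3.80 on injured arrays. It rose by 1.05 ± 0.13 (adjusted p = 2.36e-04), and by 1.18 on the mixed slide (adjusted p = 0.0285 with the block). With Agilent's own ratio the rises were 0.63 for the brighter and 0.46 for the dimmer probe (adjusted p = 0.0299 and 0.0465), and with no offset both were 0.75 (adjusted p = 0.00982 and 0.00423).

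Gfra2, the coreceptor for neurturin, was the 1 member gene called lower by its brightest probe. Its probe (chr14:65623101-65624224, plus strand, coordinates across an intron) read 1.70, 1.47, 1.23 and 1.31 on uninjured and 0.74, 0.62, 0.96, 0.68 and 0.37 on injured arrays. No injured array reached the lowest uninjured one. The mean fell from 1.43 ± 0.21 (SD, n = 4) to 0.67 ± 0.21 (SD, n = 5), a change of −0.75 ± 0.12 (SE) or 1.69-fold lower (limma adjusted p = 0.00144, exact permutation p = 0.00794). On the mixed slide the difference was −1.12, with an adjusted p of 0.0101 with the block. The reference channel of this probe differed by 0.004 between the groups.

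Gfra3, the coreceptor for artemin, had a high level relative to the reference and a modest rise. The uninjured arrays read 6.76, 6.67, 6.43 and 6.23 and the injured ones 6.74, 7.04, 6.93, 7.11 and 7.08. Injured array 1 lay just below uninjured array 1, and the other injured arrays were above all uninjured ones. The rise was 0.46 ± 0.11 (SE) or 1.37-fold (limma adjusted p = 0.0146, exact permutation p = 0.0238). It was 0.20 on the mixed slide, which holds both of those arrays (adjusted p = 0.626 with the block), 0.30 with no offset (adjusted p = 0.286), 0.32 with Agilent's own ratio (adjusted p = 0.291) and 0.41 with median centring (adjusted p = 0.102).

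**Figure D3:**
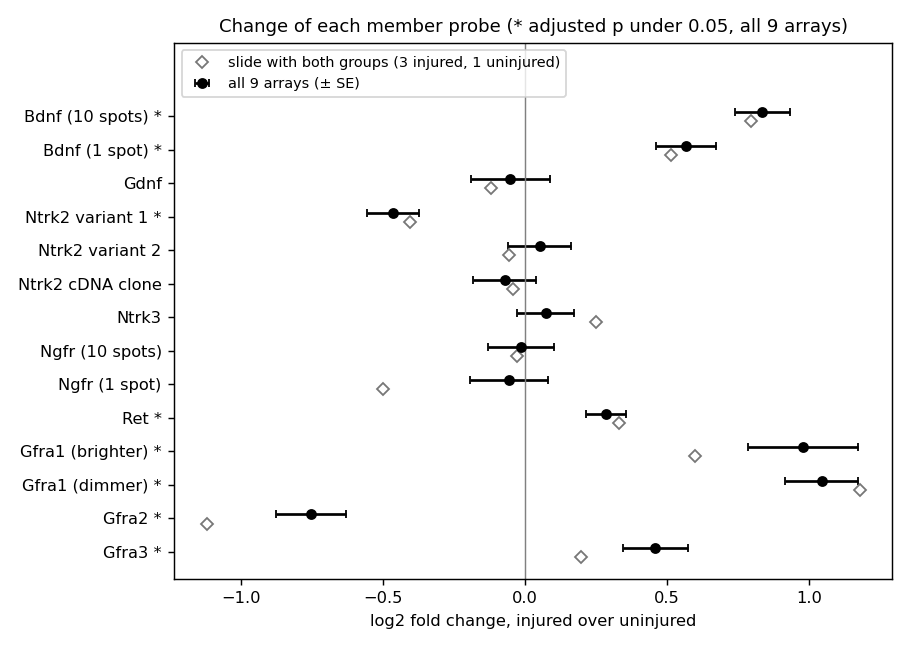
Log2 fold change of the 14 probes over all 9 arrays (black, ± SE) and on the slide that holds both groups (open diamonds, no error since it has 1 uninjured array). The 8 probes with an asterisk have the same sign in both, which was fixed in advance for all but Gfra3. Gfra3, the brighter Gfra1 probe, both Bdnf probes and the kinase Ntrk2 probe lie nearer to 0 on that slide. The dimmer Gfra1 probe, Gfra2 and Ret lie farther from 0.

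The reference RNA was the same on every array, so its channel gives a check of each ratio. In Cy3 alone, 0.0962% of all probes tested differed between the groups at an adjusted p under 0.05, against 21.5% in Cy5 alone, and no member probe was among the former. For several probes with a bright Cy5 and a dim Cy3 spot the Cy3 signal nevertheless moved the same way as Cy5. The kinase Ntrk2 probe was lower by 0.69 in Cy5 and by 0.29 in Cy3 (adjusted p = 0.0540 in Cy3), the Gfra3 probe higher by 0.82 and 0.32, and the Gfra1 probes higher by 1.24 and 1.35 in Cy5 and by 0.24 and 0.29 in Cy3. The change of the ratio was smaller than that of Cy5 alone for each of these 4. The part of the Cy3 differences in the ratios was not tested.

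**Figure D4:**
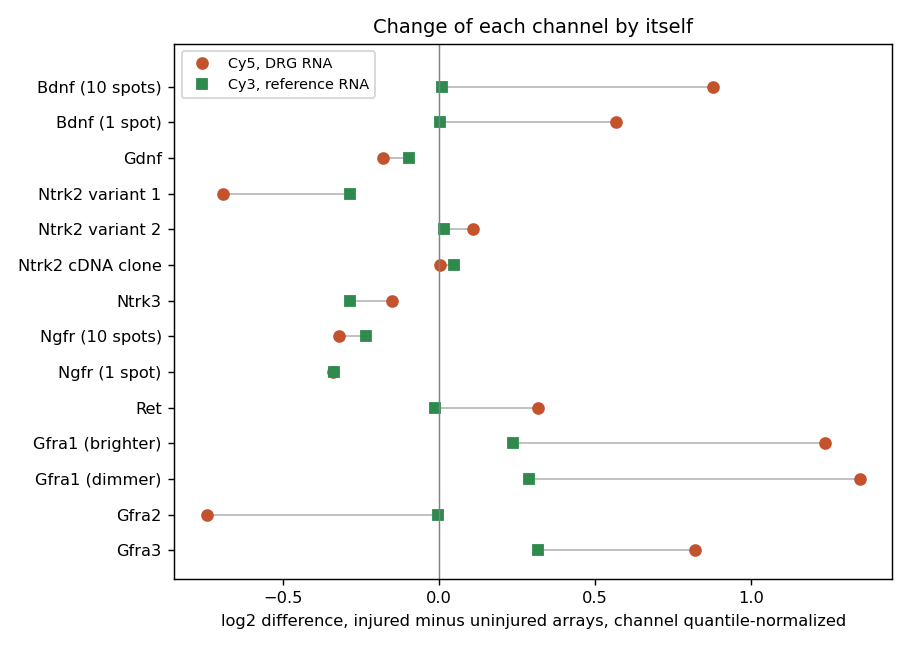
Log2 difference between injured and uninjured arrays for Cy5 (DRG RNA, orange circles) and Cy3 (reference RNA, green squares), each channel quantile-normalized by itself. Cy3 stays within 0.02 of 0 for Bdnf, Ret and Gfra2, and lies between 0.23 and 0.34 away from 0 for Ngfr, Ntrk3, the kinase Ntrk2 probe, Gfra1 and Gfra3.

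The other genes of these pathways, also chosen with earlier results of these data known, were mixed in direction. Of 64 other pathway genes with a tested probe, 14 were called higher and 15 lower by their brightest probe, with a median change of 0.01, where the median over all 20898 genes was 0.001 and 2338 of them were called higher and 2859 lower. With slide as a fixed block 8 other pathway genes were called. Of 6 other ligands 1 was called. Ntf3, which encodes neurotrophin-3, the ligand of TrkC, read 0.79, 0.73, 0.85 and 0.88 on uninjured and −0.0045, 0.03, −0.05, 0.15 and −0.15 on injured arrays. The groups stood well apart, with a fall of 0.82 on the log2 scale (SE 0.07, limma adjusted p = 1.88e-05).

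Among 12 other receptors and coreceptors 3 rose and 3 fell. The falls included Lingo1, a partner of p75 in the Nogo receptor complex (−0.74 ± 0.10, adjusted p = 3.75e-04), and Sorl1, a sorting receptor of the sortilin family (−0.58 ± 0.06, adjusted p = 5.26e-05). Nradd, a relative of p75, rose by 0.45 ± 0.09 (adjusted p = 0.00405). The remaining 3, named after their values were seen, were Sdc3 (0.41), Sorcs2 (0.32) and Sorcs3 (−0.54). Of 30 adaptors and effectors 8 were called higher and 5 lower. The largest rises were those of Traf4, which binds p75 (0.63 ± 0.07), the docking protein Dok2 (0.57 ± 0.18) and the Rap1 exchange factor Rapgef1 (0.54 ± 0.09), and the largest falls those of Dok4, a substrate of Ret (−0.46 ± 0.11), Shc1 (−0.40 ± 0.07) and Sos1 (−0.36 ± 0.09), which link receptor tyrosine kinases to Ras. Dok2 is also a gene of myeloid cells, and 3 of 11 macrophage markers were called higher (Aif1, Cd14 and Itgam), with the list's mean level from 0.07 to 1.14 on injured and from −0.42 to 0.33 on uninjured arrays. Their part in the Dok2 change was not tested. Among the other adaptors, named after their values were seen, Grb2 (0.43), Shc2 (0.25) and Dok5 (0.47) were called higher. Shc3 (−0.26) and Frs3 (−0.31) were called lower. Of 16 regulators and targets 3 rose and 6 fell. Arc, an immediate early gene induced by BDNF in neurons, rose most (1.04 ± 0.11, adjusted p = 1.01e-04). Egr1 of the same list, named after its value was seen, was not called (0.32 ± 0.25, limma adjusted p = 0.408). A link of Arc to the Bdnf rise was not tested. After Arc came Lrig1, a negative regulator of receptor tyrosine kinases including Ret (0.69 ± 0.16), and the adaptor Sh2b3 (0.43 ± 0.08). The ubiquitin ligase Nedd4l (−0.51 ± 0.12), the Ras pathway inhibitor Spred2 (−0.46 ± 0.08) and the receptor phosphatase Ptprf (−0.39 ± 0.08) fell most.

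**Figure D5:**
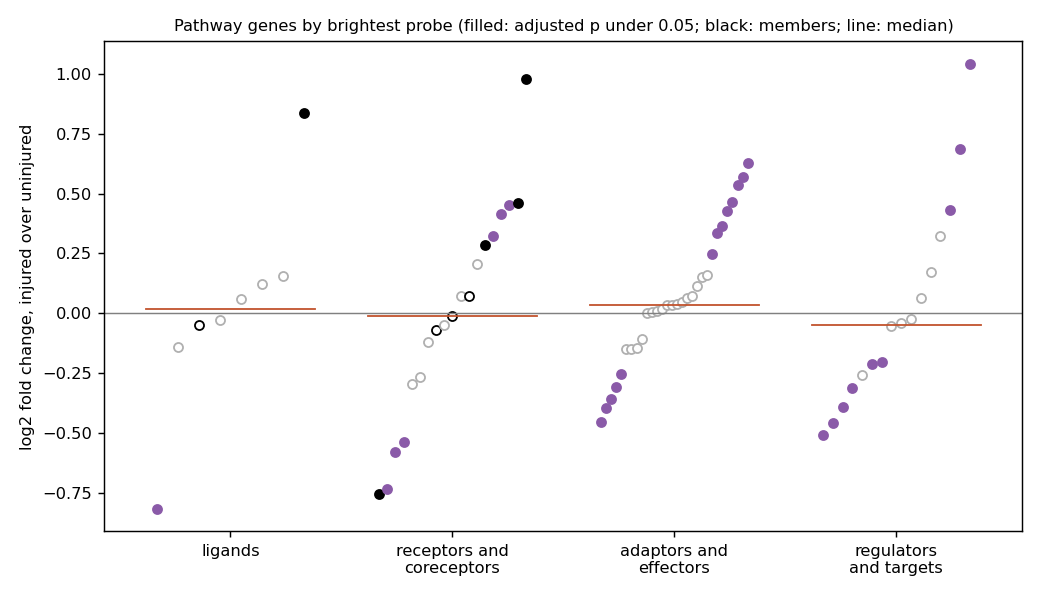
Log2 fold change of each gene in the 4 pathway lists by its brightest probe, in rising order within a list, with members in black, called genes filled and the list median as a line. Changes run from −0.82 (Ntf3) to 1.04 (Arc), and each median lies within 0.05 of 0.

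Marker lists of other cells were read beside the receptors that glia also make. Over all 20898 genes, 2338 were called higher and 2859 lower by their brightest probe. Of 8 satellite glia markers 2 were called higher (Glul and Slc1a3) and none lower, and the list's mean lay from −0.01 to 0.33 on injured against −0.15 to 0.13 on uninjured arrays. None of 7 myelinating Schwann cell genes was called. Of 5 repair Schwann cell markers tested, Jun and Gfap were called higher. Shh (−0.15), Sox2 (0.001) and Ngfr (−0.01) were not called, and the list median was 0.001. Which cells carried the rises of Jun and Gfap was not tested. Of 11 markers of sensory neuron classes 4 were called, each lower: Etv1, Scn11a, Runx1 and Mafa. The list's mean lay from −0.33 to −0.19 on injured and from −0.09 to 0.12 on uninjured arrays, and the part of this shift in the changes of Gfra2 and Ntrk2 was not tested.

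The profile of Gfra1 over the 9 arrays, by its brighter probe alone, was most like those of Nono (Pearson r = 0.976), Pde1c (0.970), Dusp14 (0.968), Gdf9 (0.968) and Mettl7a2 (0.964). That of Gfra2 was most like those of Rad51d (r = 0.988), Mrps25 (0.986), Arhgap17 (0.985), Synpr (0.981) and Ms4a3 (0.978). These are the closest of 16485 genes with a symbol, 23 and 114 of which had r above 0.95, and they describe 9 arrays that share the same split into injured and uninjured.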

How the data were processed

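The samples were 9 L3/L4 DRG samples on two-colour arrays. The deposited scanner intensity values are mean spot signals and median local backgrounds per channel from Agilent Feature Extraction 10.5.1.1. Its deposited log10 ratio, per the file headers background-subtracted and dye-normalized, and the authors' log2 ratio values, normalized within each array, were alternatives. The deposited quality flags (other values) marked spots. Probe positions are on build mm7, as in the files.

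Intensities were corrected with normexp (offset 50) and loess within arrays in limma 3.58.1 (R 4.3.3). Spots with a non-uniformity flag were left out on that array, since on 1 injured array they pull the background fit off. Repeated spots were averaged, and probes with a Cy5 signal well above background on 4 or more arrays were tested with limma (lmFit and eBayes), with Benjamini-Hochberg adjustment over all of them. Alternatives varied the background correction, scaling, filter, treatment of slides and arrays used. Single values had a two-sided exact permutation test. A gene was called by its brightest probe. Tested on simulated data with 200 changed of 31186 probes, this recovered 95% of changes of 1 and 71% of changes of 0.5 on the log2 scale. Of the simulated calls 4.6% were false. In the data 23.5% of probes were called, and recovery at such a share was not simulated.

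Members and gene lists were chosen with earlier results of these data known. Genes named are every member probe, the 3 largest rises and falls called in each pathway list, the ends of the marker lists, the 5 genes most like the members that rose and fell most, Atf3 and Sprr1a. Other genes were named after their values were seen. Figures were drawn with matplotlib.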

Additional observations from a re-analysis of the deposited data

Results flagged for a closer look

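In 98 groups of 4 or 5 arrays, 2 had an array far from the others, where chance gives about 1 in 20. On injured array 5 the brighter Gfra1 probe minus the dimmer was −0.48, with the next array at 0.20. On uninjured array 4 the mean of the muscle genes was 0.0900 above the uninjured mean, with the next at −0.02.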

How the results depend on the processing

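No paired analysis was possible because replicate numbers and animals are absent from the labels. The authors' values, dropping the filter on dim probes, testing the brightest probe per gene alone and array weights changed no call and no sign of a member probe. A filter on both channels left out Gdnf and Ret and changed no other. The 7338 calls over all probes became 3523 with median centring, 1505 with slide as a fixed block, 134 on the mixed slide alone, 1627 when a change above 1.5-fold was also asked for and 4040 without injured arrays 2 and 4, an alternative chosen after seeing the data. In the same settings the 5 member genes called became 3, 2, 0, 3 and 3, and the 29 other pathway genes called became 14, 8, 0, 5 and 17. With all spots kept in the background fit 3 member genes were called. Leaving out 1 array at a time gave 5377 to 7481 calls, 5 member genes each time and 23 to 29 pathway genes, and changed no call of a member probe. The mixed slide has 1 uninjured array.

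Sign turns were found only for differences that were not called. Gdnf went to 0.165 with all spots kept and 0.139 without injured arrays 2 and 4. The dimmer Ngfr probe went to 0.0156 with no background correction, 0.184 with no offset, 0.408 with Agilent's own ratio and 0.0353 with slide as a random block, and the brighter to 0.000761 with Agilent's own ratio, 0.00793 with the random block and 0.00427 without injured arrays 2 and 4. The Ntrk2 cDNA probe went to 0.00373 in Cy5 alone. The truncated Ntrk2 probe went to −0.0940 with all spots kept, −0.0279 with median centring, −0.0552 on the mixed slide or with the fixed block and −0.00308 without injured arrays 2 and 4. Ntrk3 went to −0.0934 with all spots kept and −0.150 in Cy5 alone. Of differences between probes of a gene, that of the cDNA and truncated Ntrk2 probes went to 0.0146 on the mixed slide. That of the Ngfr probes went to −0.0229 with no background correction, −0.201 with no offset, −0.0212 with median centring and −0.407 with Agilent's own ratio, and that of the Gfra1 probes to 0.00284 with no offset and 0.174 with Agilent's own ratio. With single arrays left out, Gdnf ran from −0.118 to 0.0355, the Ngfr probes from −0.127 to 0.0718 and from −0.112 to 0.0394, the cDNA and truncated Ntrk2 probes from −0.122 to 0.0115 and from −0.0137 to 0.114, and the differences between the Ngfr probes from −0.0648 to 0.151 and the Gfra1 probes from −0.147 to 0.0888. The kinase and cDNA Ntrk2 probes no longer differed in their change without uninjured array 2 (−0.366, exact permutation p = 0.0536). The causes were not tested.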
